A study of Mus musculus with 6 samples.

Results

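The 10 genes described here encode amino acid transporters of the plasma membrane: Slc3a2, Slc7a5, Slc7a6, Slc7a1, Slc38a1, Slc38a2, Slc1a4, Slc1a5, Slc6a9 and Slc43a1. They were chosen by name, leaving out the cystine importer Slc7a11, and all 10 were found among the 56748 genes measured. The measurements come from 4T1, a mouse mammary carcinoma cell line labelled wild type. The 3 control samples were 4T1 cells with no treatment named in the labels. The 3 treated samples were grown for 24 h and given Au/MoS2/Bi2S3 heterojunction particles at 125 µg/mL overnight. They then received near-infrared light for 8 min and were kept for 24 h after it. Both groups are labelled as collected at 48 h. Cells given particles alone or light alone were not analysed here, so the action of the particles and that of the light cannot be told apart. The series' design text describes total RNA pooled from the cells of 3 individuals, and nothing names separate cultures.

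A cell cannot make the essential amino acids, and plasma membrane transporters decide which amino acids enter it, which leave and in exchange for what. Some work as exchangers that bring in a large neutral amino acid such as leucine while another leaves, some accumulate glutamine, alanine or serine by coupling to sodium, and others carry arginine and lysine. Several are known targets of the transcription factor ATF4, which is translated when amino acids run short or the cell is stressed, and amino acids taken up are sensed at the lysosome by the Rag GTPases that recruit the growth kinase complex mTORC1.

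Of the 10 transporters, 7 rose in the treated samples and none of the others fell. Those that rose were Slc7a5, Slc7a1, Slc38a1, Slc38a2, Slc1a4, Slc1a5 and Slc6a9. Slc3a2 and Slc7a6 did not pass the test, and Slc43a1 was too low to test. Levels are given in FPKM, fragment counts scaled by the authors for transcript length and library, and differences as log2 fold changes of treated over control on log2(FPKM + 1), a scale that understates the change of low genes. The test was limma over the 11118 genes that reached 1 FPKM in 3 or more libraries, and a gene was called at a Benjamini-Hochberg adjusted p under 0.05. Treated cells differed from controls in much of the transcriptome: 6240 genes were called, 56.1% of those tested, with 27.9% higher and 28.3% lower. Against that background 7 of the 9 transporters tested were higher. The 2 others also had a fitted change above 0. At an unadjusted p under 0.05 in limma, 7 transporters were higher and 0 lower, where 6899 of 11118 genes tested passed in either direction. The median log2 fold change of the 9 transporters was 0.62, where that of all genes tested was -0.01. In the same 7 transporters the lowest treated sample exceeded the highest control, a pattern seen in 33.6% of all genes tested. The transporters, like the related lists below, were chosen with earlier results of these data known. Such counts and medians therefore describe the listed genes and are no independent test of them. In bulk RNA, more transcript per cell and a change in which cells were left cannot be told apart.

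**Figure D1:**
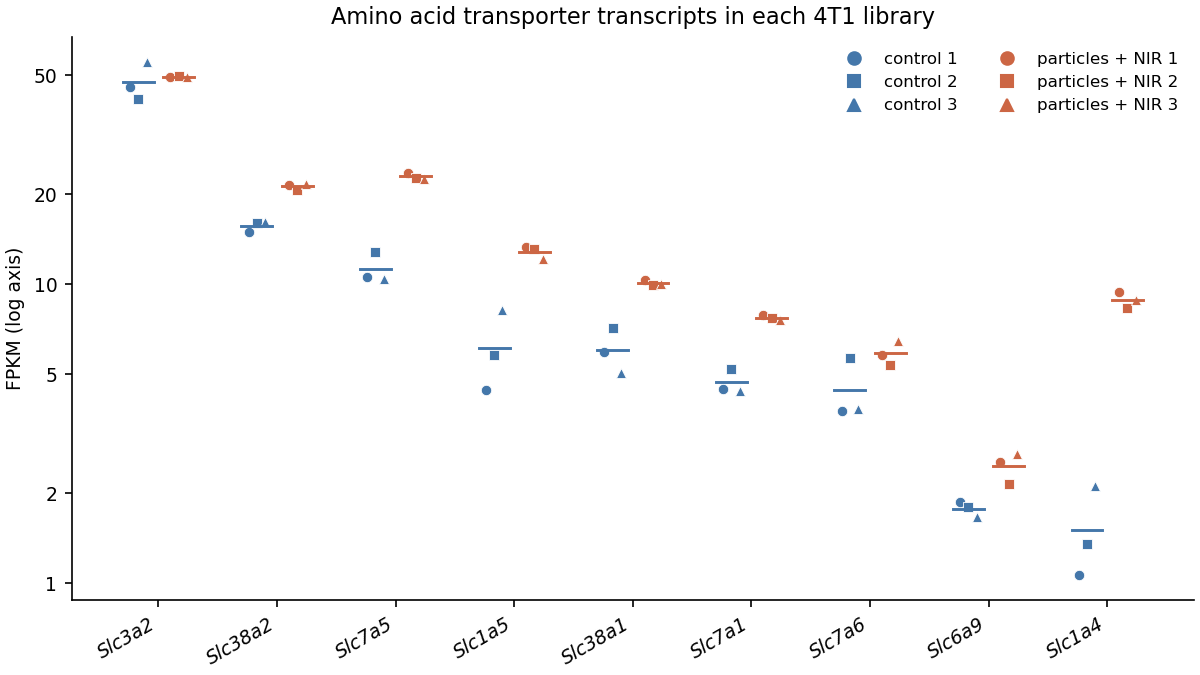
Level of each transporter other than Slc43a1 in each library (FPKM, log axis), with a point for each of the 3 control (blue) and 3 treated (orange) samples and a line at each group's mean. Slc1a4 shows the widest gap, from between 1.07 and 2.12 FPKM to between 8.30 and 9.40 FPKM, and the points of Slc3a2 and of Slc7a6 overlap between groups.

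The libraries held between 32.6 and 38.1 M reads (1e6) at genes, worked back from the FPKM. The authors' scaling keeps the median gene about equal in both groups. Scaling by library size alone would raise the median gene by 0.61 on the log2 scale and change the calls to 6344 higher and 1116 lower. The control samples spread more than the treated ones, with a median SD per gene of 0.27 against 0.07 on the log2 scale. Keratins of the epithelial lineage were abundant but lower in treated cells, with Krt8 at 351.4 ± 7.45 FPKM against 479.9 ± 12.6 in controls (SD, n = 3), and the epithelial markers Krt18, Krt19 and Epcam fell too. The epithelial cadherin gene Cdh1 was at most 0.0989 FPKM in any library. Of 10 markers of fibroblasts, leukocytes and endothelium 6 stayed below 1 FPKM in all libraries and Adgre1 was at 0. The 10 summed to between 375.6 and 833.3 FPKM in controls and between 274.3 and 293.4 FPKM in treated samples, nearly all from Col1a1 and Cd68. Col1a1 ranged widely in control 1, 2 and 3, at 242.3, 112.3 and 754.1 FPKM, as did Cd68 at 131.8, 444.1 and 77.0 FPKM, so the control samples differed from one another in these genes. The part of these differences in the transporter results was not tested.

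Slc1a4, which encodes the exchanger ASCT1 for serine, alanine and threonine, had the largest fold change of the 9 transporters tested. Its level was 1.07, 1.35 and 2.12 FPKM in control 1, 2 and 3 and 9.40, 8.30 and 8.84 FPKM in treated 1, 2 and 3, from 131 to 195 reads per control library and from 1441 to 1658 reads per treated one. The groups did not overlap, and the treated samples lay within a narrow range. The mean rose 5.85-fold, from 1.51 ± 0.545 to 8.85 ± 0.546 FPKM (SD, n = 3), a log2 fold change of 1.99 ± 0.17 (SE) with a limma adjusted p of 0.000415. Ranked within each library among the genes tested, Slc1a4 moved from the 11.1, 14.6 and 26.9 percentiles in controls to the 62.1, 58.5 and 60.5 percentiles in treated samples. It was called under all 15 alternative analyses run, with log2 fold changes between 1.72 and 2.56.

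The gene lies at chr11:20302180-20332713 on the minus strand of GRCm38. Promoter windows from RefSeq, 250 bases before to 50 after a gene's start on GRCm38.p6, covered 7 of the 10 transporters with 11 windows and were searched on both strands for TGATGNAA, the letters of the C/EBP-ATF response element that ATF4 is known to bind with C/EBP partners. The motif occurred in 3.97% of the 32851 windows of all genes, and among the 7 transporters with a window in that of Slc1a4, where it crosses the start site at position -4. Slc7a5, Slc38a1 and Slc1a5, which also rose, were not searched. Sequence outside the windows, such as introns, was not searched for any gene, so a transporter without a match here may hold the motif elsewhere. The window of Slc7a11, the cystine importer, holds the motif at -66 and -47. The stretches around these matches, both on the minus strand, are shown because they mark where the motif of the ATF4 pathway stands. The genes are Slc1a4, with the largest change of the 9 listed transporters tested, and the cystine importer, which is outside that list. The stretches are given by position and sequence. They are chr11:20332710-20332813 for Slc1a4 and chr3:50443614-50443713 for Slc7a11, 5′ to 3′ with the match in capitals, read as TTGCATCA where it stands on the opposite strand.
Slc1a4: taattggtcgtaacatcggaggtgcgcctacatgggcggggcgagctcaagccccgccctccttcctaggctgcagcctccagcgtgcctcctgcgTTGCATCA
Slc7a11: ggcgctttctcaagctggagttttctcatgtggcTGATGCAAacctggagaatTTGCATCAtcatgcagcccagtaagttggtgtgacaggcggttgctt
A match is a description of the letters and does not show that a factor binds there.

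Slc1a5, the related exchanger ASCT2 that carries glutamine, was at 4.41, 5.78 and 8.21 FPKM in control 1, 2 and 3 and at 13.3, 13.1 and 12.1 FPKM in treated 1, 2 and 3. Every treated sample was above every control, with the controls spread more widely. The mean went from 6.13 ± 1.92 to 12.8 ± 0.618 FPKM (SD, n = 3), a 2.09-fold rise (log2 fold change 0.99 ± 0.20 SE, limma adjusted p = 0.00732). The balance between the pair shifted: the ratio of Slc1a4 to Slc1a5 within a library was 0.242, 0.233 and 0.258 in controls and 0.705, 0.636 and 0.728 in treated samples. The ratio was 2.82-fold higher without overlap (exact permutation test, two-sided, p = 0.1, the smallest p that 3 against 3 samples allow, and 0.12 after Benjamini-Hochberg adjustment over the 6 ratios computed). A single scaling factor per library leaves such ratios unchanged, but quantile normalization and the removal of gene trends do not.

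Slc7a5 encodes LAT1, the light chain that exchanges leucine and other large neutral amino acids when it is joined to the heavy chain CD98, encoded by Slc3a2. Slc7a5 was at 10.6, 12.8 and 10.4 FPKM in control 1, 2 and 3 and at 23.5, 22.7 and 22.5 FPKM in treated 1, 2 and 3. The groups stood far apart relative to their spread. Its mean rose 2.04-fold, from 11.3 ± 1.37 to 22.9 ± 0.55 FPKM (SD, n = 3), a log2 fold change of 0.97 ± 0.12 (SE) with a limma adjusted p of 0.00109.

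The heavy chain gene Slc3a2 was the most abundant transporter in all 6 libraries and did not pass the test. It was at 45.5, 41.5 and 55.1 FPKM in controls and at 49.4, 49.7 and 49.1 FPKM in treated samples, with the treated values inside the range of the controls. The fitted log2 difference was 0.07 ± 0.14 (SE; adjusted p = 0.685 by limma), with a 95% interval from -0.26 to 0.40. The interval leaves room for a moderate change either way. The result turns on how the libraries are scaled: Slc3a2 was called higher with library size only (log2 fold change 0.80, 0.19 above the median gene), with quantile normalization (0.80) and with the trend on GC content, length and level removed (0.64, limma adjusted p = 0.012), and its change was -0.02 without control 2. Its rank among the genes tested was at the 88.2, 87.3 and 88.8 percentiles in controls and at the 93.3, 93.3 and 93.4 percentiles in treated samples.

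Slc7a6 encodes y+LAT2, another light chain of CD98, which exchanges arginine for neutral amino acids. It was at 3.76, 5.68 and 3.84 FPKM in controls and at 5.79, 5.37 and 6.43 FPKM in treated samples, where treated 2 lay below control 2. The log2 fold change of 0.35 ± 0.16 (SE, 95% interval from -0.04 to 0.75) did not pass the test (limma adjusted p = 0.109), but it did without control 2 (0.51, adjusted p = 0.00924) and with library size only (0.98, 0.37 above the median gene). Slc7a11, the light chain that imports cystine in exchange for glutamate, is given for comparison: it went from 0.115, 0.227 and 0.230 FPKM to 3.43, 3.20 and 3.17 FPKM, 17.2-fold higher (log2 fold change 1.84 ± 0.09 SE, limma adjusted p = 0.000137). Slc7a11 passed the filter on low values through the treated samples only.

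Set against the heavy chain in the same library, Slc7a5 was at 0.232, 0.310 and 0.188 of the FPKM of Slc3a2 in controls and at 0.476, 0.457 and 0.458 in treated samples. That ratio was 1.91-fold higher in treated samples, without overlap (exact permutation test, two-sided, p = 0.1, the smallest possible, 0.12 adjusted over 6 ratios). Its size depends on the scaling. The log2 fold changes of Slc7a5 and Slc3a2 were 0.97 and 0.07 in the main fit and 1.27 and 0.80 with quantile normalization. With the trend on GC content, length and level removed they were 1.23 and 0.64, so the 2 genes lay closer together under these alternatives. The ratio of Slc7a6 to Slc3a2 overlapped between groups, at 0.0825, 0.137 and 0.0696 against 0.117, 0.108 and 0.131 (exact permutation p = 0.4). The measured light chains of CD98, Slc7a11 included, summed to 0.349 ± 0.0998 of the heavy chain in controls and 0.652 ± 0.0178 in treated samples (SD, n = 3). FPKM is a level per length of transcript, so these ratios compare RNA and say nothing of the proteins.

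**Figure D2:**
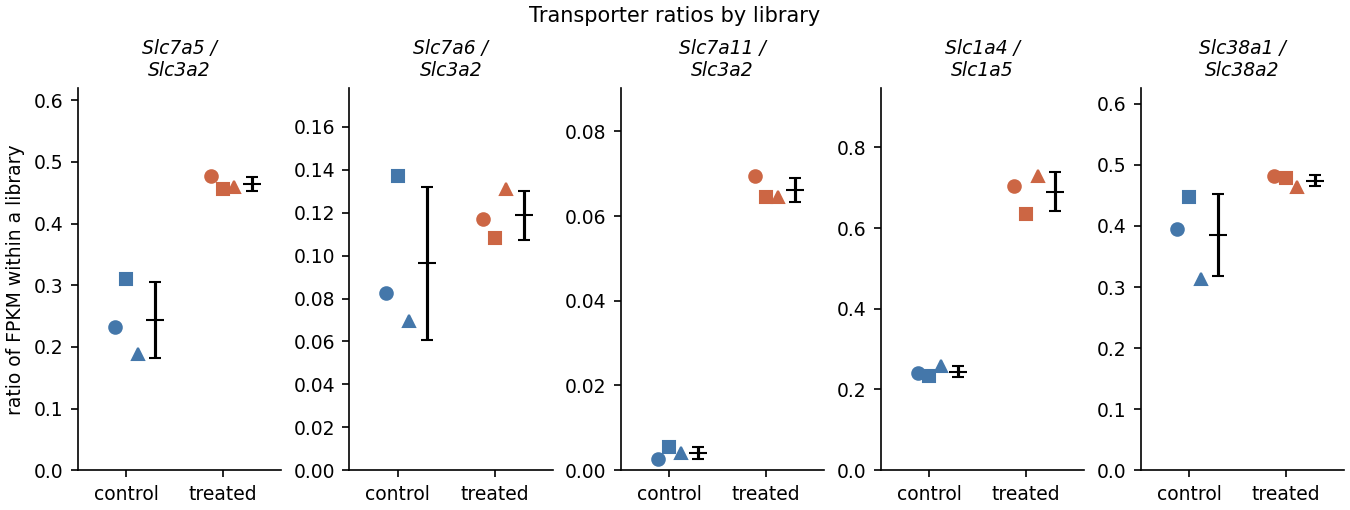
Ratios of FPKM between transporters within each library, with a point for each of the 3 control (blue) and 3 treated (orange) samples, symbols for replicate numbers and black bars for the mean ± SD. The Slc7a5 to Slc3a2 ratio lies between 0.188 and 0.310 in controls and between 0.457 and 0.476 in treated samples, and the Slc1a4 to Slc1a5 ratio between 0.233 and 0.258 and between 0.636 and 0.728.

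Slc7a1 encodes CAT1, the main carrier of arginine and lysine in most proliferating cells. It was at 4.48, 5.21 and 4.40 FPKM in control 1, 2 and 3 and at 7.89, 7.69 and 7.57 FPKM in treated 1, 2 and 3, with no overlap. The mean rose 1.64-fold, from 4.70 ± 0.449 to 7.72 ± 0.161 FPKM (SD, n = 3; log2 fold change 0.62 ± 0.10 SE, limma adjusted p = 0.00356). Slc7a1, Slc7a5, Slc1a4 and Slc1a5 were called under each of the 15 alternatives.

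Slc38a1 and Slc38a2 encode SNAT1 and SNAT2, sodium-coupled carriers of glutamine and alanine, and SNAT2 is known as the transporter that cells raise when starved of amino acids. Slc38a1 was at 5.92, 7.14 and 5.05 FPKM in controls and at 10.3, 9.92 and 10.0 FPKM in treated samples. Slc38a2 was at 15.0, 16.0 and 16.1 FPKM in controls and at 21.4, 20.7 and 21.6 FPKM in treated samples. In neither gene did the groups overlap. Slc38a1 rose 1.67-fold (log2 fold change 0.67 ± 0.13 SE, limma adjusted p = 0.00698), and Slc38a2 rose 1.35-fold (0.42 ± 0.10, adjusted p = 0.0113).

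The call of Slc38a2 was lost without treated 1, 2 or 3 (limma adjusted p = 0.0676, 0.0597 and 0.0696), with a replicate block (0.0711) and with the trend on GC content and length removed (log2 fold change 0.10, adjusted p = 0.426). The trend removal also ended the call of Slc38a1 (0.34, adjusted p = 0.0839). The ratio of Slc38a1 to Slc38a2 within a library was 0.395, 0.447 and 0.313 in controls and 0.481, 0.479 and 0.463 in treated samples. It was 1.23-fold higher (exact permutation test, two-sided, p = 0.1, the smallest possible, 0.12 adjusted over 6 ratios). The groups nearly touched, at 0.447 in control 2 and 0.463 in treated 3. Of the 11 promoter windows of the transporters, 7 held TGACNNNGC on either strand, the core letters of the antioxidant response element, and so did 12.4% of all windows. The 7 windows belong to 5 genes, and windows of the same gene can overlap. The matches in the overlapping windows of Slc7a6 are the same site, so the windows are not independent. The stretch of Slc38a2 at chr15:96699729-96699828, minus strand of GRCm38.p6, is shown 5′ to 3′ as an example, with the match at position -27 in capitals.
Slc38a2: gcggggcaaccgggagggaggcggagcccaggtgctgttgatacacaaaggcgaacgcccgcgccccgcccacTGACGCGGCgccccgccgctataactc
The genes with these letters included Slc7a1 and Slc6a9, which rose, Slc7a6, which did not pass the test, and Slc43a1, which was too low to test.

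Slc6a9 encodes GLYT1, which takes up glycine with sodium and chloride. It was at 1.86, 1.79 and 1.67 FPKM in controls and at 2.55, 2.14 and 2.71 FPKM in treated samples, without overlap. The 1.39-fold difference was called (log2 fold change 0.32 ± 0.10 SE, limma adjusted p = 0.0384), the weakest call of the 7. It was lost in 10 of 14 alternatives, with adjusted p up to 0.758, and its rank among the genes tested overlapped between groups, at the 21.8, 20.2 and 22.1 percentiles in controls and the 23.0, 19.0 and 24.9 percentiles in treated samples. The exons of the gene Ccdc24 on the opposite strand cover 27.8% of those of Slc6a9, and reads of the 2 genes cannot be told apart without a strand setting, which is not given in the sources used here. Ccdc24 was listed at 0 in all controls and at up to 0.0252 FPKM in treated samples.

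Slc43a1 encodes LAT3, a carrier of large neutral amino acids that works without CD98. It was listed at 0 in all 3 controls and in treated 3, and at 0.0195 and 0.0158 FPKM, 5 and 4 reads, in treated 1 and 2. A level of 3 reads, the limit that a count of 0 allows if reads are independent, corresponds to between 0.0119 and 0.0224 FPKM in the 4 libraries at 0. Where both reads of a pair were counted, the limit is higher. A difference between the groups was not detectable at this depth.

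**Figure D3:**
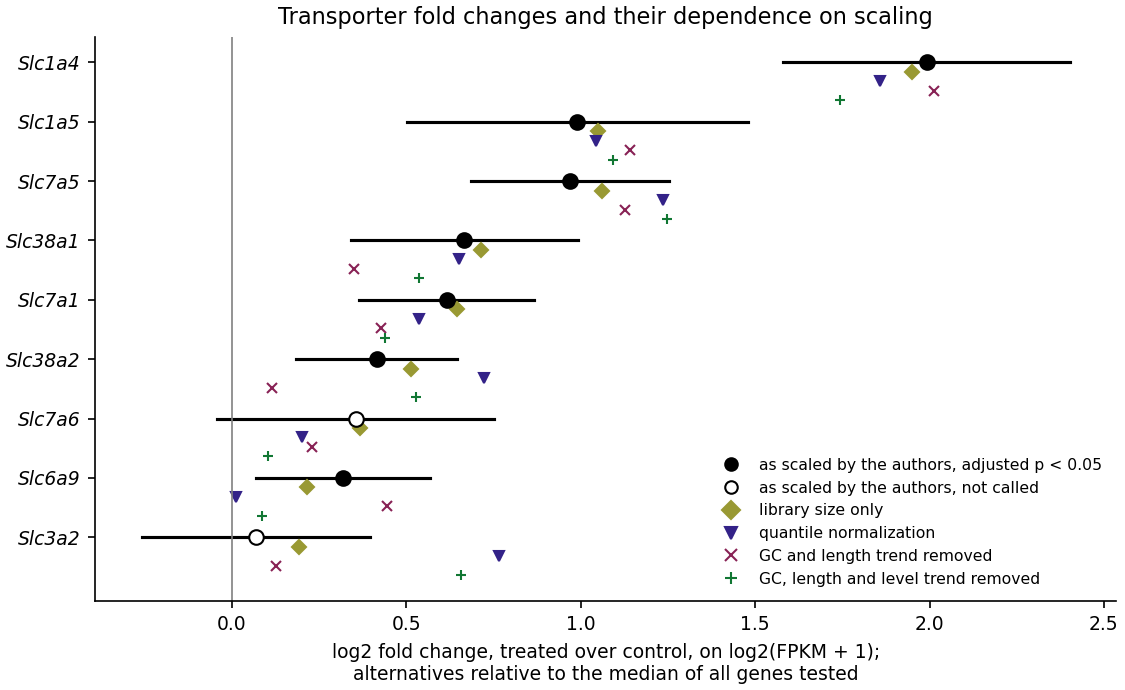
Log2 fold change of treated over control on log2(FPKM + 1) for the 9 transporters tested, with black circles and 95% interval bars for the limma fit (open where not called) and smaller symbols for 4 other scalings or trend corrections, each relative to the median gene. The intervals of Slc3a2 (-0.26 to 0.40) and Slc7a6 (-0.04 to 0.75) include 0, and Slc1a4 stands apart at 1.99.

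The order of the transporters changed with treatment. In controls it ran Slc3a2, Slc38a2, Slc7a5, then Slc1a5, Slc38a1, Slc7a1 and Slc7a6, whose neighbours overlapped in range, then Slc6a9 and Slc1a4, which also overlapped, and last Slc43a1. In treated samples it ran Slc3a2, Slc7a5, Slc38a2, Slc1a5, Slc38a1, Slc1a4, Slc7a1, Slc7a6, Slc6a9 and Slc43a1, and no neighbours overlapped. Slc7a5 thus passed Slc38a2, and Slc1a4 passed Slc6a9, Slc7a6 and Slc7a1. The 10 summed to 92.5, 97.2 and 106.9 FPKM in controls and to 143.7, 139.6 and 140.9 FPKM in treated samples. Slc3a2 made up 49.2, 42.7 and 51.6% of that sum in controls and 34.4, 35.6 and 34.8% in treated samples, while the share of Slc1a4 went from 1.15, 1.39 and 1.98% to 6.54, 5.95 and 6.28%.

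Among 35 other amino acid transporters of the plasma membrane, 28 stayed below 1 FPKM in all libraries, 16 of them at 0 throughout. Of the 7 tested, 5 rose and 0 fell at the adjusted threshold, where 27.9% of all genes tested rose and 28.3% fell. At an unadjusted p under 0.05 in the limma fit 0 fell too, where 6899 of 11118 genes tested passed in either direction. The median log2 fold change of the 7 was 0.77. That is the value of Slc43a2, 1 of the 5, whose direction was fixed by the filter, as only its treated samples reached 1 FPKM. Slc36a4, a carrier of proline and tryptophan, went from 0.943, 1.10 and 1.10 FPKM to 3.86, 3.99 and 3.51 FPKM, 3.62-fold higher (log2 fold change 1.23 ± 0.09 SE, limma adjusted p = 0.000333). Slc43a2, which encodes LAT4, a relative of LAT3, went from 0.315, 0.245 and 0.493 FPKM to 1.33, 1.33 and 1.22 FPKM, 3.69-fold (adjusted p = 0.00135), and passed the filter through the treated samples only. Slc6a6, the taurine transporter, rose 1.80-fold (adjusted p = 0.00589), Slc36a1, a proton-coupled carrier of small amino acids, 2.09-fold (0.00429), and Slc1a7, a glutamate transporter, 2.18-fold (0.00657). Slc38a4 was at 2.22 FPKM in controls and 2.50 FPKM in treated samples, and Slc16a10, a carrier of aromatic amino acids, at 2.43 and 1.85 FPKM. Neither passed the test.

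A list of 38 genes for amino acid sensing at the lysosome held sensors, the complexes of the Rag GTPase and mTORC1 pathway and lysosomal transporters. Of these genes 36 were tested, and 16 rose, 5 fell and 15 did not pass. Among all genes tested 27.9% were higher and 28.3% lower. The 6 sensors of leucine, arginine or methionine gave 3 that rose and 0 that fell. The median log2 fold change of the 36 genes was 0.31. Fnip2, a partner of folliculin in the complex that acts on the Rag GTPases, rose from 3.01 ± 0.271 to 8.20 ± 0.134 FPKM (SD, n = 3; log2 fold change 1.20 ± 0.10 SE, limma adjusted p = 0.000393). Sesn2, a leucine sensor, went from 2.37, 3.79 and 3.71 FPKM to 14.1, 12.9 and 13.1 FPKM, 4.06-fold (adjusted p = 0.0005). The Rag GTPase genes did not move together: Rraga and Rragc rose, Rragc from 14.6 to 29.0 FPKM (adjusted p = 0.00103), and Rragd fell from 5.77 to 2.89 FPKM (0.00391). Of the 5 subunits of Ragulator, the lysosomal anchor of the Rag GTPases, 3 fell, with Lamtor5 at 148.1 ± 8.15 FPKM in controls and 68.7 ± 10.1 FPKM in treated samples (SD, n = 3; adjusted p = 0.00149). All 3 lysosomal amino acid transporters tested, Slc38a7, Ctns and Pqlc2, rose, Slc38a7 from 3.04 to 8.57 FPKM. Slc38a9, the other of the 4 listed, was too low to test, at 0.309 FPKM in controls and 0.431 FPKM in treated samples. Pqlc2 and Depdc5, a subunit of the inhibitory GATOR1 complex that rose from 0.338 to 1.95 FPKM, passed the filter through the treated samples only. The count of 16 fell to 9, of 23 genes tested, with a minimum of 5 FPKM. It fell to 11, 10 and 11, of 34 tested, without treated 1, 2 and 3. It went to 25, with 1 lower, with library size only. The count of 5 lower fell to 3 without treated 1 or treated 3 and with a minimum of 5 FPKM.

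The 20 cytosolic aminoacyl-tRNA synthetases, which load amino acids onto tRNA, gave 3 that rose, 5 that fell and 12 that did not pass. All genes tested were 27.9% higher and 28.3% lower, so the counts do not set this family apart. Its median log2 fold change was -0.10. Lars, the leucine enzyme, went from 7.69, 6.16 and 9.01 FPKM to 17.7, 19.5 and 19.4 FPKM, 2.48-fold higher (log2 fold change 1.22 ± 0.15 SE, limma adjusted p = 0.0011). Qars, the glutamine enzyme, went from 47.0, 53.1 and 60.6 FPKM to 21.2, 22.4 and 23.8 FPKM, 2.39-fold lower (-1.21 ± 0.13, adjusted p = 0.000771). In neither did the groups overlap. The split depended on scaling: 13 were higher and 1 lower with library size only, and 7 and 1 with quantile normalization. Without control 3 the higher count was 5, and without control 2 the lower count was 9. The lower count was 3 without treated 1 or treated 2, and the higher count was 2 without each other library.

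Of 10 genes tested that regulate the transporters 1 rose, 6 fell and 3 did not pass, beside 27.9% higher and 28.3% lower among all genes tested. Their median log2 fold change was -0.69. The transcript of Atf4 was at 180.6, 208.9 and 130.8 FPKM in controls and at 83.5, 88.5 and 89.2 FPKM in treated samples, without overlap (log2 fold change -0.96 ± 0.19 SE, limma adjusted p = 0.00684). Cebpg, a dimer partner of ATF4, fell from 18.7 ± 2.17 to 8.96 ± 0.422 FPKM (SD, n = 3; adjusted p = 0.00112), Cebpb from 152.7 to 45.0 FPKM (0.00538) and Myc, a factor known to raise Slc7a5 and Slc1a5, from 8.05 to 3.28 FPKM (0.008). ATF4 is known to be set mainly by translation, which RNA levels do not measure. The gene that rose was Eif2s1, the initiation factor subunit whose phosphorylation raises ATF4 translation, from 19.0 to 23.6 FPKM (adjusted p = 0.0436). With library size only 4 regulators were higher and 1 lower, and with the trend on GC content, length and level removed 2 and 2. Eif2s1 lost its call, leaving 0 regulators higher, without control 1, without treated 1, 2 or 3, with the GC content and length trend removed, with sample weights and with a replicate block, and 2 were higher without control 2.

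**Figure D4:**
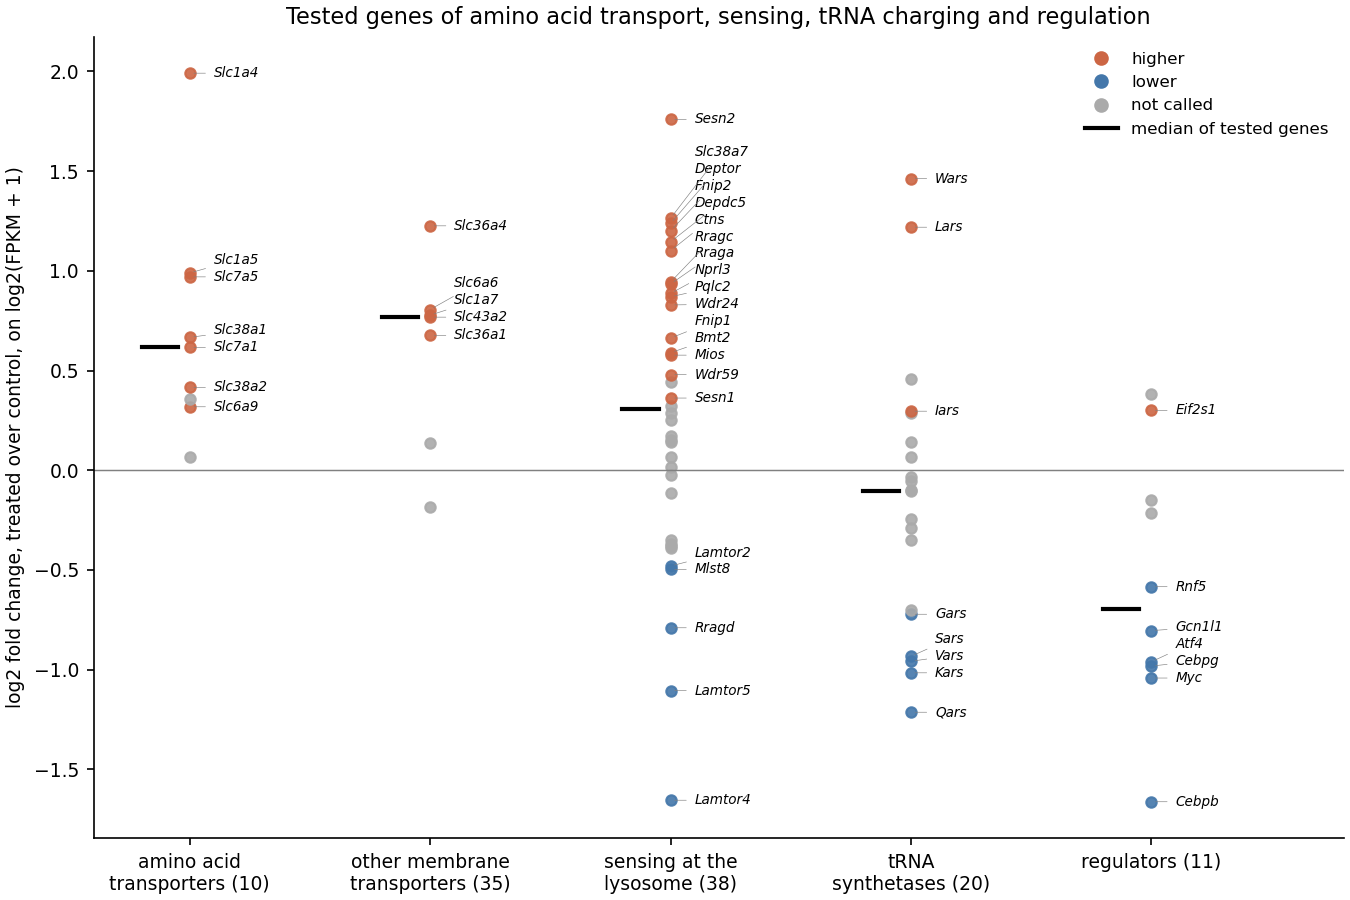
Log2 fold change of treated over control on log2(FPKM + 1) for each tested gene of the transporters and of the 4 related lists, with a point per gene coloured by its call, called genes named, a black line at each list's median and the number of genes listed in brackets. The medians run from 0.77 for the other plasma membrane transporters and 0.62 for the transporters described here to -0.69 for the regulators. That of all genes tested was -0.01. The 0.77 is the value of Slc43a2, which passed the filter through the treated samples only.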

How the data were processed

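The authors deposited FPKM per gene for 6 samples, per the file headers. Not given in the sources used here: aligner, build, annotation and strandedness. With no separate cultures named, p-values cover only the spread between the samples at hand, which may be technical. All samples carry the same batch label. Symbols (for 52125 of 56748 identifiers), lengths and coordinates were taken from GENCODE M21 (GRCm38), possibly not the annotation the authors used.

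Low FPKM were whole multiples of 1 read (92.3 to 93.4% of values below 200 reads within 0.02), which gave depth. Samples of a group differed beyond sampling noise and were counted separately. Tests ran on log2(FPKM + 1) in limma 3.58.1 (R 4.3.3, trended variance), and were tested on simulated data. Ratios used SciPy 1.17.1. Members and lists were chosen with earlier results of these data known. Named genes were all members, the called gene of smallest p in each direction of a list, every called other plasma membrane transporter and Slc7a11. Other genes named were picked after their values were seen. Alternatives covered pseudocount, filter, scaling, gene properties, sample weights, replicate block and each library left out.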

Additional observations from a re-analysis of the deposited data

How the results depend on the processing

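The direction of each tested transporter held under every alternative run, except that Slc3a2 went to -0.020 without control 2 (range -0.020 to 0.18 over single libraries left out). Between 5 and 9 transporters were called higher and 0 lower. Under scaling by library size alone, 6344 genes rose and 1116 fell, against 3099 and 3141 as reported. With a minimum of 5 FPKM, 1385 of the 6687 genes tested were higher. Leaving out 1 library gave 1542 to 3637 higher and 2011 to 3585 lower; the higher counts were 1575, 1597 and 1542 without treated 1, 2 and 3, and the lower ones 2068 and 2011 without treated 1 and 3.

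Sensing genes called higher were 25 with library size only and 9 of 23 tested with a minimum of 5 FPKM. They were 10 to 17 without 1 library. Those lower were 1, 3 and 3 to 6 in the same settings, and 3 with sample weights. Synthetases higher were 13 with library size only, 7 with quantile normalization, 5 with the trend on GC content, length and level removed and 2 to 5 without 1 library, and 2 with the trend on GC content and length removed, the replicate block or sample weights; those lower were 1, 1, 1 and 3 to 9. Other plasma membrane transporters higher were 1 of 1 tested with a minimum of 5 FPKM. They were 3 of 7 with the GC content, length and level trend removed. Regulators higher were 4 with library size only, 2 with quantile normalization or the GC content, length and level trend removed, 0 with the GC content and length trend removed, sample weights or the replicate block, and 0 to 2 without 1 library; those lower were 1 with library size only, 4 with quantile normalization and 2 with the level trend removed, and 4 to 7 without 1 library. The cause of these changes was not tested.

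Replicate numbers did not pair the samples (correlations of deviations -0.0538, -0.111 and -0.140). With the replicate block 2618 genes were higher and 2669 lower, and 5 transporters were higher. Slc43a1 entered a test only with no filter on low values, Slc6a9 entered none at a minimum of 5 FPKM and Slc7a11 none there or without a treated library. Low read counts limit Slc43a1 and the control values of Slc7a11.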
